A study of Rattus with 18 samples.

Results

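The 6 arrays of days 4 and 5 of a rat glomerulonephritis time course fell into 2 sets of 3, out of 18 arrays in the series. The active set was day 4 replicates 2 and 3 and day 5 replicate 5, and the quiet set was day 4 replicate 1 and day 5 replicates 2 and 4. The sets were picked from the levels of macrophage and mitosis genes on these same arrays, so every difference between them is a description with no test. The macrophage marker Cd68 stood at 1.77, 1.77 and 2.54 on the active arrays and at 0.05, 0.86 and 0.32 on the quiet ones, against 0.79, 0.20 and 0.06 on the controls. The proliferation marker Mki67 stood at 1.77, 2.03 and 1.63 on the active arrays, 0.04, -1.48 and -0.66 on the quiet arrays, and 0.00, -0.71 and -0.69 on the controls. These levels, like all levels given for a gene, are log2 processed signals minus the array's 75th percentile, in the order day 4 then day 5 for a set and by replicate number for a day.

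The study followed glomeruli of rats (strain label SD, 200 g) after an injected antibody against Thy1, with 3 arrays for each of days 1, 2, 3, 4 and 5 and 3 for day 0. All 6 late arrays came from rats given the antibody, and the day 0 rats got saline. The labels describe 6 rats per time point with 3 glomeruli taken from each. Nothing says which rats, or how many, lie behind an array, so material may have been pooled across rats. The spread between arrays may therefore be partly technical.

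Thy1 is a surface protein of rat mesangial cells, the contractile pericyte-like cells that hold the glomerular capillaries together. The antibody lyses these cells through complement. Monocytes and macrophages enter, the remaining mesangial cells divide, take on a myofibroblast form with contractile proteins and interstitial collagens, and in the usual course the lesion heals.

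The 75th percentile of the processed signal was 452, 386 and 336 on the active arrays and 344, 273 and 252 on the quiet ones, higher for the active arrays within each day, and the part of this in the results was not tested. On day 5 all 3 arrays shared slide 3, so the day 5 difference is a within-slide value. On day 4 the quiet array lay on slide 4 with the 3 arrays of day 2 and the active ones lay on slide 5, so slide and set cannot be told apart there. The scan day of days 2 and 4 differed from that of days 0, 1, 3 and 5. Day 0 replicate 4 stood apart from the other controls, and its correlation with the late arrays was between 0.8461 and 0.8979 across genes, below the range of 0.9236 to 0.9673 for the other 2 controls. Tubule transcripts were present in tissue labelled as glomerulus. Umod, which marks the thick ascending limb, was well above background on all 9 arrays of the controls and late days, at 7.99 to 8.79.

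Of 23177 genes and transcripts tested, 852 (3.68%) were higher on the active arrays. A gene counted as higher when all 3 active arrays lay above all 3 quiet ones and the difference was at least 1 on the log2 scale (2-fold) within day 4 and within day 5. Another 146 (0.63%) were lower by the same rule. With no minimum size, 3158 genes (13.6%) had all active arrays above all quiet ones and 4174 (18%) had them all below, and nothing is read from these shares, since the sets were chosen on the same arrays. The count of lower genes rested on single arrays: it was 628 without day 4 replicate 1, 249 without day 4 replicate 3, 223 without day 5 replicate 2 and 418 without day 5 replicate 5. The count of higher genes stayed between 828 and 1253 when any late array was left out. Just inside the threshold were Sh2b3, with a smaller within-day difference of 1.00, and Ces2g, at -1.01. Just outside were Oas1i, at 0.999, and Slc34a2, at -0.996.

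All 3 active arrays were above all 3 controls for 742 of the 852 higher genes, and for 28.5% of all genes. Every quiet array was within 1 of the control mean for 485 of the 852, and for 60.9% of all genes. The median over the 852 genes was 1.76, 1.57 and 2.02 above the control mean on the active arrays and -0.15, 0.10 and 0.25 on the quiet arrays. The median over the lower genes was -1.41, -1.31 and -1.51 relative to the control mean on the active arrays and -0.01, -0.09 and 0.25 on the quiet ones.

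**Figure D1:**
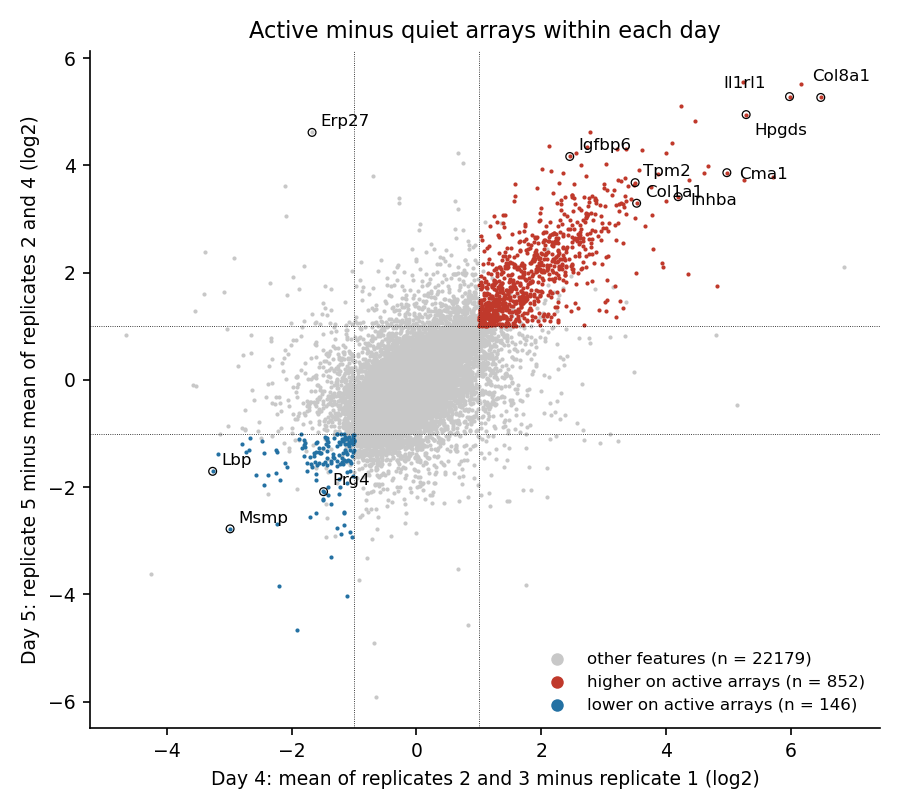
Active minus quiet on day 4 (x axis) against day 5 (y axis), both in log2 units, for each of 23177 genes and transcripts; red points are the 852 higher genes, blue points the 146 lower genes, and dotted lines mark a difference of 1. Col8a1, Il1rl1 and Hpgds lie farthest out among the labelled higher genes, and Erp27 runs in opposite directions on the 2 days.

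Of 11 smooth muscle and contractile genes tested, 6 were higher on the active arrays and none was lower, where 3.68% of all genes were higher, and the median difference was 1.14 on day 4 and 1.17 on day 5, against -0.07 and -0.10 over all genes tested. Tpm2, a tropomyosin of the actin filament, stood at 7.25, 7.19 and 7.47 on the active arrays, 3.71, 3.67 and 3.91 on the quiet ones and 2.98, 2.21 and 2.47 on the controls. The 3 active arrays lay within 0.28 of each other and were 11.3-fold above the quiet ones on the day with the smaller difference. Tagln, which encodes transgelin, stood at 4.56, 4.41 and 4.75 against 1.10, 0.80 and 1.45, and its quiet arrays were also above the controls (-0.23, -0.53 and -0.38). The regulatory light chain Myl9 was at 7.42, 7.16 and 7.29 against 4.55, 4.51 and 4.62. Myh11, the heavy chain of differentiated smooth muscle, did not separate the sets, at -0.64, -0.18 and -0.69 on the active arrays and -0.28, -0.90 and -0.85 on the quiet ones. Acta2, the usual myofibroblast marker, was not analysed here.

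Markers of mesangial cells split. Of 17 tested, 6 were higher (Thy1, Pdgfrb, Gucy1a1, Gucy1b1, Fhl2 and Serpine2), against 3.68% over all genes, and none was lower. The median difference was 0.91 on day 4 and 0.77 on day 5. Thy1, the antibody's own target, stood at 1.55, 0.17 and 0.42 on the active arrays and -0.89, -1.23 and -1.18 on the quiet ones. The controls, at -0.02, 0.46 and -0.70, overlapped the active arrays and lay above all 3 quiet ones, so the set that was near control for macrophage genes was the one with less Thy1 signal. In a mixed tissue, fewer cells of a type and less RNA per cell cannot be told apart. Both subunits of the nitric oxide receptor were also higher on the active arrays, but unlike Thy1 their quiet arrays were not below the controls. Gucy1a1 was at 2.60, 1.94 and 2.35 against 0.20, 0.12 and -0.12, with controls at 0.33, -0.14 and -0.10. Gucy1b1 was at 1.44, 0.92 and 1.35 against -1.20, -0.93 and -1.25, with controls at -1.50, -1.93 and -2.18. Pdgfrb, the receptor through which PDGF drives mesangial division, was at 2.30, 2.18 and 2.5 against 1.09, 1.67 and 1.22. Itga8, the mesangial integrin chain, was low on both sets, at -2.38, -2.95 and -2.39 against -3.17, -2.08 and -2.54, with controls at -1.04, -0.23 and -1.84. Its 3 probes gave day 5 differences of both signs, from -0.12 to 0.12.

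Several interstitial collagens were higher on the active arrays. Of 24 fibrillar collagen and cross-linking genes, 10 were higher, against 3.68% over all genes, 14 did not pass, and none was lower. All active arrays were above all quiet ones for 18, against 13.6% over all genes. The median difference was 0.79 on day 4 and 1.30 on day 5. Col8a1, a short-chain collagen made by vascular and mesangial cells, had the second largest difference among genes with a symbol outside the macrophage, mitosis and DNA replication lists, at 2.67, 2.31 and 3.22 on the active arrays and -3.99, -1.72 and -2.38 on the quiet ones, with controls at -4.46, -4.03 and -4.39. Col1a1 was at 4.43, 5.75 and 4.13 against 1.57, 0.44 and 1.23. Col3a1 was at 2.78, 2.23 and 3.92 against 0.92, -0.18 and 0.72. Lox, the enzyme that starts collagen cross-links, was at 1.54, 0.35 and 1.47 against -0.79, -1.52 and -1.34, and Loxl1, Loxl2 and Loxl3 also counted as higher. No member of the 16 collagen IV and laminin genes passed in either direction, where 3.68% of all genes were higher and 0.63% lower. Their medians were 0.06 and 0.32, and no difference between these lists was tested. Col4a1, a chain of every basement membrane, had all active arrays above all quiet ones, with differences of 0.86 and 1.14, and its probes differed in sign. Col4a3, a chain of the mature glomerular basement membrane, was lower than the controls on both sets, at 1.67, 1.56 and 1.44 against 1.77, 1.80 and 2.09, with controls at 2.59, 3.35 and 2.82.

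Of 19 fibronectin and matricellular genes, 5 were higher, against 3.68% over all genes, and none lower. Fibronectin (Fn1) was at 4.25, 3.93 and 4.46 on the active arrays against 2.59, 2.67 and 2.56. Ccn3, a matricellular protein, was at -0.78, -1.18 and -0.41 against -3.05, -3.52 and -2.83, and the elastic fibre protein Fbln5 was at -0.20, -0.75 and 0.05 against -2.03, -1.82 and -1.67. Thbs1, which encodes thrombospondin-1, ran the other way without reaching the threshold, at -3.10, -2.77 and -2.30 against -1.96, -2.12 and -1.15. Among 12 metalloproteinases and inhibitors 3 were higher, against 3.68% over all genes. They include Mmp12, a gene of macrophages, whose markers chose the sets. The gelatinase Mmp2 was at 2.23, 1.75 and 2.98 against -0.15, 0.85 and 0.81, and Mmp12, the macrophage elastase, at -0.02, -0.30 and -0.41 against -2.18, -3.79 and -4.90, with 2 of 3 quiet arrays well above background.

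Ligands of the TGF-beta superfamily included 2 of the large differences, and 4 of 26 members of that list were higher, against 3.68% over all genes. Inhba, which encodes the activin A subunit, stood at 0.89, 0.88 and 1.55 on the active arrays, -3.31, -2.29 and -1.46 on the quiet ones and -2.59, -3.47 and -3.55 on the controls. Tgfb3 was at -0.15, 0.28 and 0.32 against -2.95, -3.29 and -3.36. In the list of 17 vascular and renin-angiotensin genes, 3 were higher, against 3.68% over all genes. Among them was Angpt2, the antagonist ligand of the endothelial Tie2 receptor, at 3.72, 3.14 and 3.25 against 1.74, 1.60 and 1.88. The lymphangiogenic factor Vegfd was another, at -0.39, -0.62 and -0.35 against -3.13, -3.02 and -3.07. Igfbp6, a binding protein of insulin-like growth factor 2, was at -0.74, -2.11 and 0.49 against -3.88, -3.97 and -3.37, with day 4 replicate 3 the lowest of the active arrays. Fgf2, a mitogen released from injured mesangial cells, was not well above background on any quiet array and was at least 2.83-fold higher on the active ones. Its other probe had a day 5 difference of 0.08. Of the PDGF ligands, Pdgfa had differences of 0.54 and 0.68, and Pdgfb 0.18 and 0.33.

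**Figure D2:**
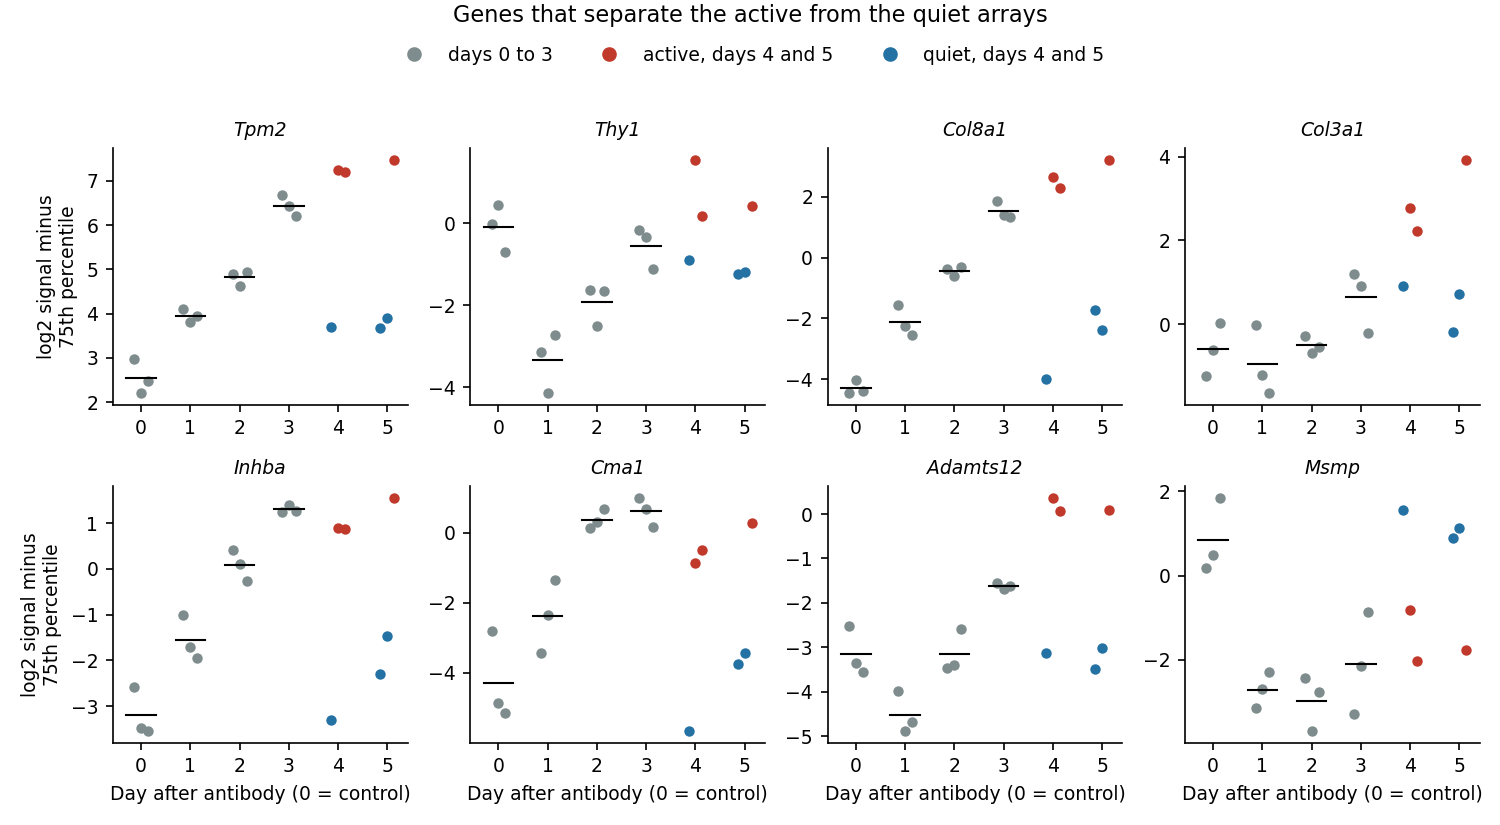
Level of 8 genes on all 18 arrays by day (x axis, 0 is control; y axis, log2 processed signal minus the array's 75th percentile); grey points are days 0 to 3 with their mean as a bar, red points the active and blue points the quiet arrays of days 4 and 5. Tpm2, Col8a1 and Inhba on the active arrays continue from day 3. On the active arrays Tpm2, Col8a1, Adamts12 and Col3a1 are above every other array. Msmp is lower on the active than on the quiet arrays, but its active arrays are above those of days 1 and 2.

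Several genes of mast cells stood among the largest differences. No mast cell list had been drawn up for this study; the one used here was chosen after these values were seen, and supports nothing beyond the description. Of its 13 members tested, 7 were higher on the active arrays, against 3.68% over all genes, and none was lower. The median difference was 3.79 on day 4 and 2.45 on day 5. Cma1, which encodes chymase, was at -0.88, -0.51 and 0.27 on the active arrays, -5.66, -3.76 and -3.42 on the quiet ones and -2.82, -4.85 and -5.15 on the controls. Mcpt1, another mast cell protease, was at -0.65, -0.34 and 0.78 against -4.49, -3.58 and -3.34. Il1rl1, the receptor for interleukin-33, was at -1.17, -1.33 and -0.31 against -7.22, -7.15 and -4.03, with 1 of 3 quiet arrays well above background. Another 3 members were not well above background on any quiet array: Hpgds, the hematopoietic prostaglandin D synthase, was at least 14.2-fold higher on the active arrays, a bound set against the dimmest signal still well above background, Mcpt8l2 at least 4.54-fold and carboxypeptidase Cpa3 at least 3.42-fold. Defining markers did not all move: the tryptase Tpsab1 was at 1.18, 1.30 and 1.03 against 1.25, 1.22 and 1.63, and Kit, the stem cell factor receptor, was well above background on 1 active array and 2 quiet ones. Il1rl1 and Hpgds are expressed by other leukocytes too.

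Cytotoxic cell genes were among those higher on the active arrays. Of 16 lymphocyte and NK cell markers, 7 were higher (Gzmb, Prf1, Nkg7, Klrd1, Klrb1a, Ptprc and Coro1a), against 3.68% over all genes. Ptprc and Coro1a are not particular to cytotoxic cells. The 3 probes of Ptprc had day 5 differences from 0.49 to 1.59. The day 5 difference of Coro1a became negative with normexp background correction, fitted as planned or on negative control spots. None was lower, and the medians were 1.55 and 1.00. Granzyme B (Gzmb) was at -1.46, -1.05 and -0.02 on the active arrays against -4.32, -2.27 and -2.39, and the NK receptor chain Klrd1 at -1.27, -1.41 and -0.41 against -4.0, -2.33 and -2.91. The T cell receptor chain Cd3e was at -2.97, -2.97 and -2.72 against -3.97, -3.01 and -1.67, where the sets overlap, and Cd3g had differences of 1.43 and 0.98. Whether one family moved more than the other was not tested. Among 14 chemokine receptors and adhesion genes 6 were higher and none lower. Cx3cr1, the fractalkine receptor, was at least 3.17-fold higher, with no quiet array well above background. Of 5 neutrophil markers tested none separated the sets. S100a9 was at -0.03, 1.94 and 1.56 on the active arrays and -0.32, 2.56 and 1.46 on the quiet ones.

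Chemokine ligands went in both directions. Of 20 tested, 4 were higher and 1 was lower, against 3.68% and 0.63% over all genes. Ccl6 was at 2.80, 2.43 and 3.45 on the active arrays against 0.73, 1.33 and 0.92, and the interferon-induced Cxcl9 at -2.44, -2.52 and -1.26 against -4.63, -3.02 and -2.59. Cxcl1, the neutrophil attractant, was the lower one, at -1.43, -1.90 and -2.11 against -0.19, 0.01 and -1.17, with controls at -2.30, -2.42 and -2.86, so its quiet arrays were farther from the controls than its active ones. Interferon response genes had 7 of 26 higher and 19 of 26 with all active arrays above all quiet ones, against 3.68% and 13.6% over all genes, with medians of 0.85 and 0.86. The immunoproteasome subunit Psmb8 was at 2.34, 2.27 and 3.21 against 0.65, 1.67 and 1.22. MHC class II chain RT1-Da was at 4.55, 4.85 and 4.84 against 3.23, 2.82 and 2.65. Of 15 complement genes 3 were higher, against 3.68% over all genes. Among them was Cfd, the factor D protease of the alternative pathway, at 1.34, 0.55 and 2.49 against -2.41, -1.66 and -1.96. Hmox1, the heme oxygenase that macrophages induce when they clear red cells, was at 0.38, 0.19 and 1.44 against -2.52, -1.48 and -1.24. As macrophage genes chose the sets, its difference is not independent of that choice. It was the single higher gene among 17 of oxidative stress and heme. With 3.68% of all genes higher, nothing is read from that count.

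Among macrophage markers themselves, which stand for what chose the sets, Gpnmb was at 0.15, -0.11 and 0.24 on the active arrays against -3.64, -2.61 and -2.66. Spp1, osteopontin, is listed with them but also made by tubule cells, and it was at 4.02, 3.70 and 4.45 against 5.91, 4.42 and 5.43. Of 25 macrophage markers tested 21 were higher and of 32 mitosis genes 29, against 3.68% over all genes. Nothing is read from these counts, since such genes chose the sets. Among mitosis genes Kif11 and Hmmr did not follow on the probe used, and a second probe of each was higher on the active arrays on both days, by up to 2.69 for Kif11 and 2.88 for Hmmr on day 5.

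The 15 genes of largest difference outside the macrophage, mitosis and DNA replication lists were Il1rl1, Col8a1, C9h6orf141, Hpgds, Fcna, Mcpt8l2, Mcpt1, Cma1, Fcrl2, Mastl, Pclaf, Ska1, Tpm2, Ddias and Inhba. Pclaf, a partner of the replication clamp PCNA, was at 3.75, 3.76 and 4.46 on the active arrays against -0.01, 0.42 and 1.29, and the kinetochore gene Ska1 at -0.37, -0.07 and -0.03 against -3.78, -4.66 and -3.24. The mitotic entry kinase Mastl was at least 12.2-fold higher, with no quiet array well above background. Pclaf, Ska1 and Mastl are themselves genes of replication or mitosis that those lists lacked. Their differences are therefore not independent of how the sets were picked. Fcna, which encodes ficolin-A, a lectin of the complement pathway, had differences of 4.23 on day 4 and 5.12 on day 5, and the Fc receptor-like gene Fcrl2 of 5.25 and 3.73. Ddias, an inhibitor of damage-induced apoptosis, had 3.48 and 3.64. Over all genes 3.68% were higher, and of 18 G1/S cyclins and Cdk inhibitors 4 were. They include the S phase cyclin Ccne1, at -0.35, -0.35 and 0.18 against -2.68, -2.61 and -1.37, and the cell cycle inhibitor locus Cdkn2a, at -2.24, -2.10 and -1.03 against -4.17, -4.22 and -4.24, whose quiet arrays were below all controls (-3.42, -2.47 and -3.45). Cdkn1c, the inhibitor kept by quiescent podocytes, was at 6.50, 6.44 and 6.69 against 6.97, 7.32 and 7.19.

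The genes lower on the active arrays numbered 1 or 0 in each list used, and their day 5 direction changed with normexp background correction. Of the 15 named next, 12 had a day 5 difference above 0 with normexp, and the 146 genes became 14. Normexp could not be fitted properly on day 5 replicate 5, the only active array of day 5. Fitted on negative control spots, it left 27 of these genes. There the 2 named differences of at least 1 that changed sign were those of Acrv1 and Coro1a. Of the 66 with a symbol, those with the largest differences were Msmp, a microseminoprotein, Cyp4v3, Zbtb25, Col2a1, Inmt, Lbp, Nmbr, Svs6, Egfl6, Aldh1a2, Pgm5, Cntn3, Galnt13, Igsf1 and Prg4. Msmp was at -0.82, -2.03 and -1.77 on the active arrays, 1.56, 0.89 and 1.13 on the quiet ones and 0.17, 0.50 and 1.84 on the controls. The fatty acid hydroxylase gene Cyp4v3 was at -3.90, -4.52 and -3.78 against -1.77, -1.90 and -1.74. Lubricin (Prg4) was at -0.62, -1.37 and -1.46 against 0.49, 0.62 and 0.62. For Lbp, the lipopolysaccharide binding protein, the quiet arrays (-2.04, -2.52 and -1.79) were above all controls (-4.21, -3.68 and -3.03) and the active ones (-5.11, -5.50 and -3.86) overlapped the controls through day 5 replicate 5. Egfl6 likewise had every quiet array above every control. Aldh1a2, the retinoic acid synthesis enzyme, was at -1.75, -2.06 and -3.07 on the active arrays against -0.29, -1.64 and -0.99, and the quiet arrays overlapped the controls (-1.63, -2.75 and -1.67). Quiet arrays were above all controls for 34 of the 146 lower genes, against 27.7% of all genes, and active arrays below all controls for 96, against 30.7%.

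Epithelial and mitochondrial lists had few members past the threshold. None of 30 proximal tubule markers passed in either direction, against 0.63% lower over all genes. All active arrays were below all quiet ones for 14 of the 30, against 18% over all genes, and the medians were -0.62 on day 4 and -0.92 on day 5. The endocytic receptor Cubn was at 4.08, 4.39 and 3.14 on the active arrays against 4.96, 4.70 and 4.71. Oxidative phosphorylation genes behaved alike, with 16 of 30 below on all active arrays and medians of -0.32 and -0.49; Sdha was at 6.59, 6.93 and 6.50 against 7.36, 7.23 and 7.03. The summed share of tubule tissue in each sample was not measured, and its part in these differences was not tested. Of 10 parietal epithelial markers none passed, and Cldn1 was at 0.36, -0.32 and -0.62 against 0.89, 0.69 and 1.07. Of 27 podocyte markers 2 were higher and 1 lower, against 3.68% and 0.63% over all genes. Tcf21, a transcription factor of podocytes, was the lower one, at -1.64, -2.30 and -2.42 against -0.87, -1.14 and -0.72. Trpc6, the podocyte calcium channel that is also present in mesangial cells, was higher, at -1.56, -1.51 and -1.43 against -4.29, -4.94 and -4.42. Nephrin (Nphs1) overlapped, at 4.79, 4.32 and 4.70 against 4.65, 5.32 and 5.03.

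Endothelial markers had no gene past the threshold, where 3.68% of all genes were higher and 0.63% lower. All active arrays were above all quiet ones for 14 of 25, against 13.6% over all genes, with medians of 0.53 and 0.57. Cdh5, the endothelial cadherin, was at -0.69, -0.82 and -0.30 on the active arrays and -1.66, -1.26 and -1.15 on the quiet ones, with controls at -0.27, -0.25 and -0.80. Pecam1 was below all controls on both sets, at -1.01, -1.27 and -0.99 against -1.52, -1.79 and -1.33, with controls at 0.06, 1.29 and -0.12. The list's median relative to the control mean was between -0.56 and -0.36 on the quiet arrays and between -0.20 and 0.14 on the active ones. No member of the circadian clock (16 tested), proteasome (22), integrin (13), glucocorticoid target (12), fatty acid oxidation (22), glycolysis (19), ER stress (19) or proteoglycan (11) lists passed in either direction. With 3.68% of all genes higher and 0.63% lower, lists this short can hold none, so nothing is read from this. All active arrays were above all quiet ones for 8 of the 22 proteasome genes, against 13.6% over all genes. Ribosomal protein genes were above the controls on all 6 arrays in the median, by 0.98, 1.01 and 1.04 on the active arrays and 0.71, 0.68 and 0.66 on the quiet ones.

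**Figure D3:**
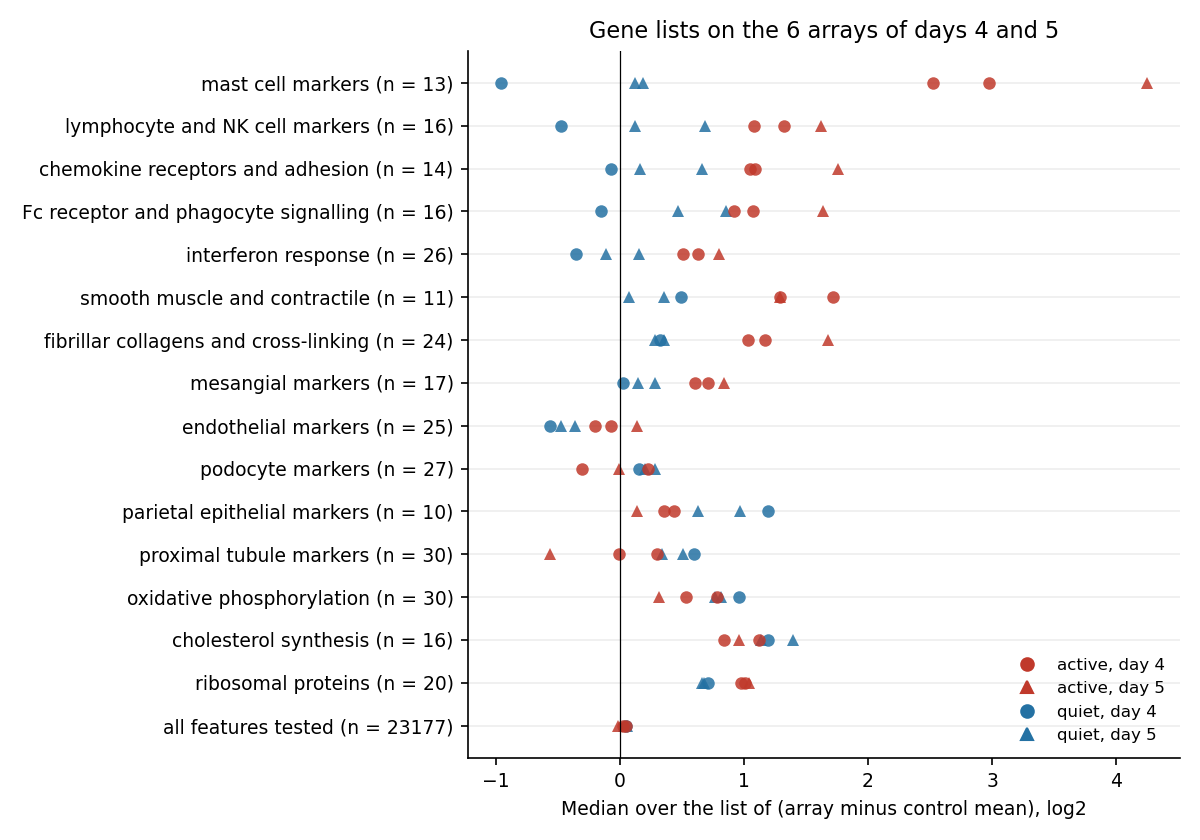
Median over each gene list of the array minus the control mean (x axis, log2) on the 6 late arrays; red is active and blue quiet, circles are day 4 and triangles day 5, and n is the number of genes tested in the list. The sets do not overlap for the contractile, collagen, interferon and mast cell lists (the last chosen after its values were seen). Cholesterol synthesis, ribosomal proteins and some other lists are above the controls in both sets.

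Quiet arrays did not match the controls in general. Correlation with the control mean across genes, which are not independent replicates, was 0.932 for day 4 replicate 1, 0.941 for day 5 replicate 2 and 0.954 for day 5 replicate 4, and between 0.913 and 0.918 for the active arrays. Counting genes at least 1 from the control mean gave 2669 above and 4177 below on day 4 replicate 1, 1467 and 4036 on day 5 replicate 2, and 1290 and 3149 on day 5 replicate 4. The active arrays had between 2823 and 3163 above and between 4418 and 4802 below.

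All 6 late arrays were at least 1 above the highest control for 27 genes (0.116%) and at least 1 below the lowest control for 881 (3.8%). The split depended on scaling: it was 301 above and 478 below when arrays were scaled to their median, and 100 above and 641 below after quantile normalization. The count above was 45 without day 5 replicate 2, 74 without day 5 replicate 4, 87 without day 0 replicate 2, and leaving out day 0 replicate 5 made it 56. Of the 881 genes below, 161 were not well above background on any late array. Of the 27 genes 3 also counted as higher on the active arrays (11.1%, against 3.68% over all genes), and of the 881 genes 18 also counted as lower (2.04%, against 0.63%).

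The 27 included sterol and lipid genes. Cyp51, the lanosterol demethylase, was at 0.55, 0.74 and 0.54 on the active arrays and 0.64, 0.41 and 0.76 on the quiet ones, with controls at -1.09, -1.53 and -1.24. Its active minus quiet difference was 0.00 on day 4 and -0.04 on day 5. Of 16 cholesterol synthesis genes 3 were in this group, against 0.116% of all genes, and none counted as higher or lower between the sets. All active arrays were below all quiet ones for 6, against 18% of all genes. The list's median was between 0.84 and 1.39 above the control mean on all 6 arrays. Aacs, which feeds acetoacetate into lipid synthesis, ranged from -0.74 to -0.36 on the late arrays against -2.63 to -2.16 on the controls. The peroxidase Prdx1 ranged from 4.96 to 5.73 against 3.43 to 3.48. The desaturase Scd2 ranged from 3.88 to 4.79 against 1.43 to 2.46, and the interferon-induced chemokine Cxcl10 from 0.65 to 1.79 against -0.85 to -0.68. Tslp, an epithelial cytokine, ranged from -2.73 to -1.62 against -4.46 to -4.07. Chek1, the replication checkpoint kinase, was one of the 3 that also separated the sets, by 1.99 and 2.03. It was not well above background on any control and was at least 3.73-fold higher on the late arrays in the mean. Xcl1, a chemokine of NK and T cells, was likewise at least 3.16-fold higher.

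The BMP antagonist Grem1 was high on both sets and differed by day. Grem1 was at 2.11 and 2.54 on the active and 3.33 on the quiet array of day 4, and at 1.53 on the active and 1.69 and 1.31 on the quiet arrays of day 5, with controls at -0.75, -2.21 and -0.98. Different probes of Grem1, Scd2 and Cox6a2 gave active minus quiet differences of both signs.

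The genes farthest below the controls on all 6 late arrays were Lhx4, Tmem54, Foxe3, Pla2g4b, Or4k5, Or7g89, Cox6a2, Arrdc5, Creb3l3 and Acrv1. Foxe3, a lens transcription factor, was at 3.54, 4.54 and 3.03 on the controls and between -4.08 and -1.12 on the late arrays. Cox6a2, a muscle form of a cytochrome oxidase subunit, was at 4.13, 6.64 and 4.50 on the controls and between -0.50 and 0.42. Lhx4, Tmem54, Arrdc5 and the odorant receptor genes Or4k5 and Or7g89 were not well above background on any late array, which gives bounds of at least 25.6, 12, 5.54, 16.4 and 6.38-fold lower. Creb3l3, a liver-enriched factor of lipid metabolism, was at 1.94, 2.17 and 2.14 on the controls, -1.58, -1.95 and -2.07 on day 4 and -3.95, -3.78 and -3.77 on day 5. Over the 881 genes, day 0 replicate 4 was 0.90 above the control mean in the median, and the other controls stood at -0.56 and -0.35. The count was 889 without that array. On day 1 the median over the 881 genes relative to the control mean was -1.27 on replicate 5, and -2.75 and -2.65 on replicates 1 and 4. Foxe3 was at 2.76 on day 1 replicate 5, and at -3.32 and -2.66 on replicates 1 and 4. The 75th percentile of the processed signal was 189, 181 and 229 on the controls, below that of every late array. Its part in these genes was not tested.

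Within each set the arrays differed along the day. Ccl20, a chemokine for CCR6-bearing cells, was at 0.45 and 0.75 on the active and 1.52 on the quiet array of day 4, and at -3.03 on the active and -3.76 and -3.83 on the quiet arrays of day 5, with controls at -3.61, -4.24 and -3.95. The keratin gene Krt72 was at -2.48, -1.75 and -2.18 on day 4 and -7.55, -7.09 and -7.18 on day 5, and 3 of the 6 arrays were well above background. Rps26, whose probe may read the many copies of ribosomal protein genes, was at 2.84, 2.70 and 2.40 on day 4 and -2.02, -1.96 and -1.90 on day 5. Fgf17 and Ucn went the other way, with Ucn at -4.20, -3.90 and -4.46 on day 4 and -0.94, -0.83 and -0.94 on day 5. Days 4 and 5 lay on different slides and scan days, so day, slide and scan day cannot be told apart between them. Day 3 replicate 4 lay on slide 3 with all of day 5. It was at -0.22 for Ucn, -0.84 for Fgf17 and -3.10 for Rps26. Day 3 replicates 2 and 3 lay on slide 2. They were at -3.97 and -3.41 for Ucn, -3.64 and -3.28 for Fgf17, and 0.12 and -0.42 for Rps26. The part of the slide in these genes was not tested. Day 2, scanned with day 4, was at -2.56, -2.97 and -2.75 for Krt72 and at 2.75, 2.71 and 2.44 for Rps26, near the day 4 values. On the arrays of the other scan day Krt72 was at most -5.94 and Rps26 at most 0.29.

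**Figure D4:**
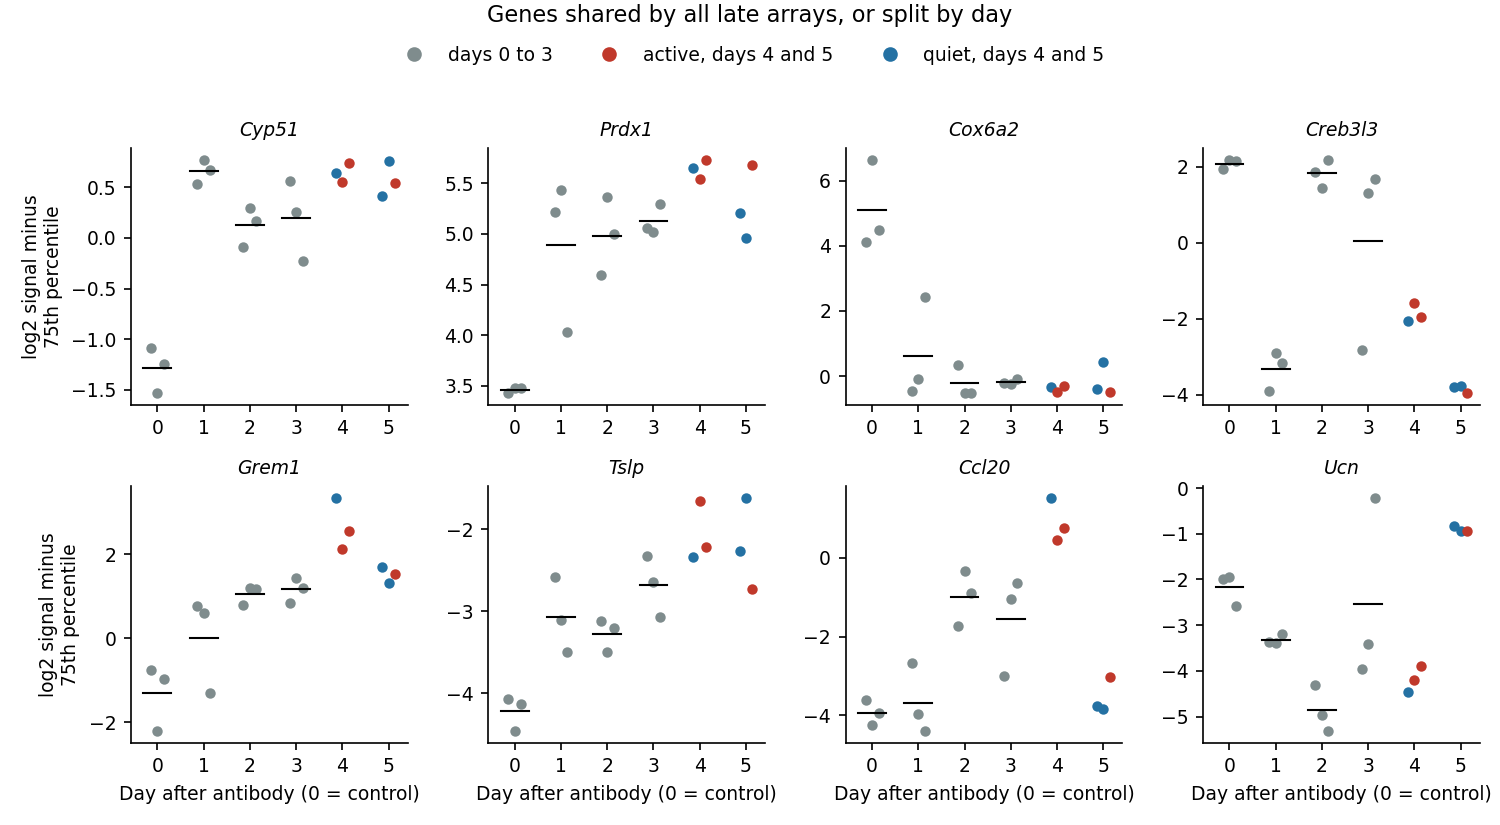
Level of 8 genes on all 18 arrays by day (axes and colours as in the plot of genes that separate the sets). Cyp51 and Cox6a2 are away from the controls on all 6 late arrays, and Ccl20 and Ucn follow the day rather than the set.

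Day 5 replicate 5 differed from the 2 active arrays of day 4 in single genes. Srpx2, a secreted protein, was at -2.17 on day 5 replicate 5 and at -5.55 and -5.76 on the others. Depp1 was at 5.15 against 1.97 and 1.64, and Serpina3n, an acute phase protease inhibitor, at -1.26 against -4.76 and -4.30. Ifit1, an interferon-induced gene, was at -7.56 on day 5 replicate 5 and at -2.37 and -2.35 on day 4, with 2 of the 3 active arrays well above background. Day 4 replicate 1 differed from the other quiet arrays in Fos, at 0.99 against -1.19 and -3.82, in Ccl2, at 2.53 against 0.53 and 1.07, in Lcn2, a marker of injured tubule cells and neutrophils, at 1.92 against 0.34 and -2.81, and in Gal, the galanin gene, at -5.21 against 3.30 and 3.67. Gal was also low on day 4 replicate 2, at -3.91, and at 3.76 on day 4 replicate 3, so it did not follow the sets.

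The same genes were then tested on the 12 arrays of days 0 to 3, none of which is a member of either set. The quiet set was described as near control when the sets were picked, so the day 0 arrays are not independent of that choice. With limma's test and Benjamini-Hochberg adjustment over 23177 genes, 415 of the 852 higher genes rose on day 1 (48.7%), 582 on day 2 (68.3%) and 698 on day 3 (81.9%). The share of all genes that rose was 17.8%, 19.3% and 20.3%. Of the 852, 64, 35 and 9 fell on days 1, 2 and 3. The median change of the set was 0.84, 1.48 and 1.99 on days 1, 2 and 3, against 0.06, 0.05 and -0.02 over all genes. Of the 146 lower genes, 57 fell on day 1 (39.0%), 63 on day 2 (43.2%) and 88 on day 3 (60.3%), where 19.5%, 24.4% and 24.8% of all genes fell. The 3 comparisons share the day 0 arrays. On day 1 the lower count was 28 without day 0 replicate 4, 27 without day 1 replicate 1 and 23 without day 1 replicate 4. With slide as a fixed block, 182 of the 852 rose on day 1 and 388 on day 3, and 28 and 35 of the 146 fell; of all genes 657 rose and 1176 fell on day 1, and 791 rose and 1178 fell on day 3. Day 2 could not be fitted with that block, since its arrays lay on a slide of their own among the 12. Scaling to the median changed the split over all genes to 7738 higher and 2803 lower on day 1, 8497 and 3774 on day 2, and 8150 and 3587 on day 3, from 4117 and 4523, 4481 and 5645, and 4703 and 5749.

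**Figure D5:**
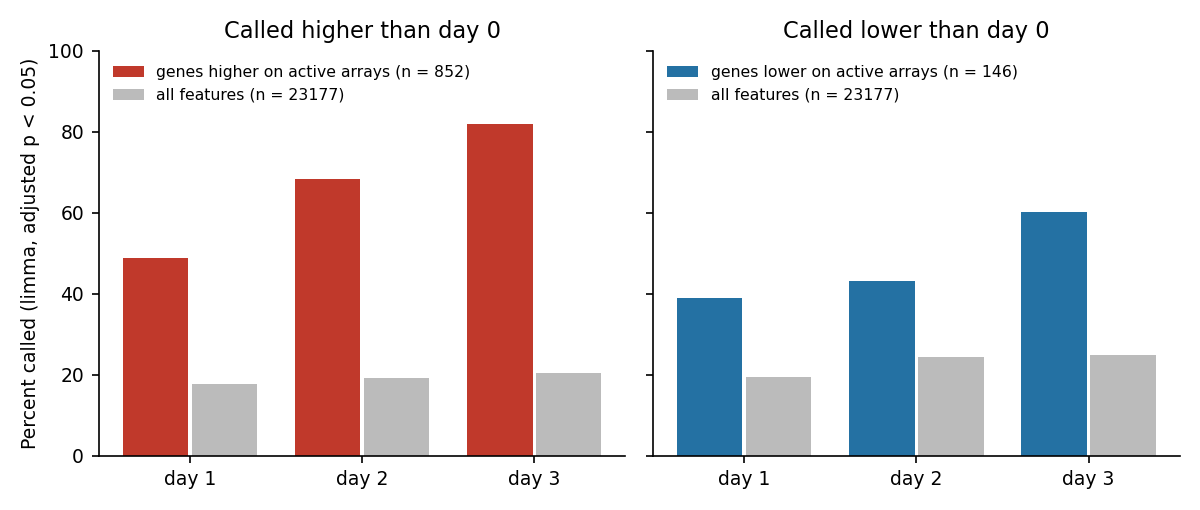
Percent of genes called against day 0 by limma (adjusted p under 0.05) on days 1, 2 and 3, 3 arrays per day; coloured bars are the 852 higher genes (left, called higher) and 146 lower genes (right, called lower), grey bars all 23177 genes tested. The share of the higher genes goes from 48.7% to 81.9%.

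By group, the contractile genes Tpm2 and Tagln had already risen on day 3, by 3.89 ± 0.22 (SE, n = 3, limma adjusted p = 6.37e-06) and 4.29 (adjusted p = 1.77e-06). Inhba rose by 4.51 ± 0.30 on day 3 (limma adjusted p = 2.22e-05) and Col8a1 by 5.83 ± 0.26 (adjusted p = 1.77e-06). Cma1 rose by 4.88 ± 0.60 (adjusted p = 0.000341), and Il1rl1, not well above background on any control, was at least 41.6-fold higher on day 3. Thy1 fell on day 1, by 3.25 ± 0.42 (SE, limma adjusted p = 0.0017), and on day 2, by 1.84 (adjusted p = 0.0068), and its day 3 change of -0.46 did not pass (adjusted p = 0.40). Pdgfrb fell by 1.75 on day 1 (limma adjusted p = 0.0058), and its changes of -0.72 on day 2 and 0.05 on day 3 did not pass (adjusted p = 0.084 and 0.91). Cyp4v3 and Inmt, lower on the active arrays, had day 3 changes of -0.09 and -0.73 that did not pass (adjusted p = 0.88 and 0.43). Of the 852 higher genes, 397 rose on all 3 days and 150 on none.

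Of the 852 genes, some of them among those that rose on days 1 to 3, 111 were at higher levels on all 3 active arrays than on any of the other 15 arrays. In all, 449 genes (1.94%) had this pattern at any size. The genes named here were chosen after their values were seen, by the distance to the next array. Pln, which encodes the calcium pump inhibitor phospholamban, was at 0.72, 0.25 and 0.66 on the active arrays and at most -1.60 elsewhere. Adamts12, a matrix protease, was at 0.36, 0.07 and 0.09 and at most -1.56 elsewhere. Both had risen on day 3 in the limma fit, Pln by 1.09 (adjusted p = 0.0095) and Adamts12 by 1.52 (adjusted p = 0.0042). Angpt2, Lox, Col3a1, Vegfd, Col1a2, Myl9, Fn1, Fbn1 and both guanylate cyclase subunits were in the same group. Lox had a day 3 change of 0.23 that did not pass (adjusted p = 0.53), and the angiotensin receptor Agtr1b, at -0.67, -1.65 and -1.30 on the active arrays, had fallen on day 3, by 1.01 (adjusted p = 0.031).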

How the data were processed

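Glomerular RNA (1.65 µg, labelled with Cy3) was hybridised to single-colour Agilent arrays, 3 for each of 6 days. The authors deposited Feature Extraction 10.7.3.1 output, per the file headers, with processed spot intensity already background-subtracted. They also deposited a table of values on a log2 scale, used as an alternative within a day. From the intensities, log2 values minus each array's 75th percentile over 41012 probes were computed (R 4.3.3, limma 3.58.1, and the data.table package, version 1.17.8; pandas 2.3.3). The brightest probe stood for a gene. Probes were kept if well above background on all 3 arrays of at least 1 day, so a gene can enter through the group where it is high. This left 23177 genes and transcripts, 12270 with a symbol from the RefSeq gene table. Where no array of a set had a probe well above background, the fold is a lower bound, taken against the dimmest signal that was.

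The sets, gene lists and members were chosen with earlier results of these data known. Named genes were the 15 of largest within-day difference in each direction, the 10 farthest from the controls in each direction, the 8 farthest in each direction from the same set on the other day, and leading members of the lists. Days 1, 2 and 3 were compared with day 0 by lmFit and eBayes on 12 arrays with Benjamini-Hochberg adjustment at 0.05. The fit was run on simulated data with independent noise and no slide effect. That check cannot show how slide alters the calls in these data. The labels name no separate animals behind arrays, so the p-values cover array-to-array spread only. The number of arrays limits the precision. Alternatives covered scaling, background, filter, probe choice, size threshold, slide, replicate number and left-out arrays. Results for some genes are not reported here.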

Additional observations from a re-analysis of the deposited data

Results flagged for a closer look

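A search was made for named genes whose active minus quiet difference was at least 1 in size in opposite directions on day 4 and day 5, with no overlap between the sets within either day. It found 7 of them, among 30 genes and transcripts that were higher on day 4 and lower on day 5 and 26 that ran the other way. The difference between the days was not tested. Erp27, an endoplasmic reticulum protein, had differences of -1.67 on day 4 and 4.62 on day 5. For Fos, an immediate early transcription factor, they were -3.40 and 1.60, and for Ccl2, the main monocyte attractant, -1.67 and 1.24. The Wnt inhibitor Dkk1 had differences of -2.34 and 1.82, Depp1 of -1.46 and 1.75, and the sperm protein gene Acrv1, above background on 1 late array, of -3.09 and 1.63. Ifit1 had differences of 1.40 and -1.62. Groups held 3 arrays, so no array was tested as an outlier within its day.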

How the results depend on the processing

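The 852 higher genes became 197 with normexp background correction, 386 with normexp fitted on negative control spots (added after seeing the data), 1479 at a threshold of 1.5-fold and 265 at a log2 difference of 2. The 146 lower genes became 14, 27, 826 and 3 under the same settings and 279 with no filter on dim probes. Left-out arrays gave 828 to 1253 higher and 118 to 628 lower genes. Genes above the controls on all late arrays numbered 301 with median scaling, 100 with quantile normalization and 2 with normexp, and 28 to 87 without 1 array. Genes below them numbered 478 with median scaling, 55 with normexp and 220 with its negative control version, and 889 to 1300 without 1 array. The cause of these shifts was not tested. Normexp could not be fitted properly on day 1 replicate 1 and day 5 replicate 5.

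On days 1, 2 and 3, normexp left 2, 200 and 293 of the higher genes rising and 0, 14 and 13 of the lower genes falling by limma's adjusted p (14 fell on day 1 at an unadjusted p under 0.05). Its negative control version gave 255 rising and 87 falling on day 1, and 108 falling on day 2. With all 18 arrays in the fit 246 rose on day 1. With slide as a fixed block 182 and 388 rose and 28 and 35 fell on days 1 and 3. Without 1 array, 287 to 430, 529 to 581 and 630 to 692 rose, and 23 to 61, 44 to 62 and 69 to 85 fell. Same-numbered arrays had correlated deviations of -0.32 to 0.16, over 0.1 in 2 of 11 pairs, so the numbers were not taken as pairs. With the replicate block 290, 455 and 617 of the higher genes rose, and 12, 25 and 52 of the lower genes fell on days 1, 2 and 3.

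Settings able to alter a within-day difference of a named gene exclude left-out controls, arrays of the other day and filters. Over these settings, 1875 of 2288 values moved by less than the spread between replicates, 388 by more, and 25 changed sign. A change of sign was counted only for a main difference of at least 1 in size, and smaller differences were sorted by the size of their move. With normexp, the day 5 difference became 1.00 for Cyp4v3, 0.98 for Zbtb25, 0.54 for Col2a1, 1.33 for Lbp, 0.18 for Nmbr, 0.57 for Svs6, 0.031 for Egfl6, 0.87 for Aldh1a2, 1.57 for Pgm5, 1.40 for Cntn3, 1.10 for Galnt13 and 1.18 for Igsf1. It became -0.15 for Cxcl10, 1.47 for Pla2g4b, 2.10 for Ifit1, 0.69 for Tcf21, -0.18 for Pdgfrb, 0.081 for Cxcl1, 0.17 for Ces2g, -6.89 for Coro1a, -0.33 for Col4a1 and -0.37 for Sh2b3. With negative control spots it became -0.12 for Acrv1 and -5.72 for Coro1a. For Pla2g4b it became 0.29 without day 5 replicate 4 and -2.44 without day 5 replicate 2. With slide as a fixed block, the day 3 change of Depp1 became -0.38.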
